A study of Mus musculus with 7 samples.

Results

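Interferon-stimulated genes are the transcripts that cells raise when an interferon binds its receptor. They were followed here in hematopoietic stem cells (HSCs) sorted from C57BL/6 bone marrow. In these mice GFP, a fluorescent protein, reports the activity of Hdc, which encodes histidine decarboxylase, the enzyme that makes histamine. The set was a list of 37 well-known gene symbols, and 36 of them had a row among the 23284 genes of the deposited count table. Ifi27 was not analysed here. All 36 passed the filter on low counts, which kept 12917 genes, so no member was lost to it. The HSCs with strong reporter signal, Hdc-GFPhi, gave 3 libraries, and those with weak signal, Hdc-GFPlo, gave 4. Each library was made from 500 cells. The labels give no treatment and no age for either fraction, and Hdc-GFPlo replicate 4 is the only library of its group whose sorted fraction is labelled Hdc-GFP-. The columns of the count table name all 4 Hdc-GFPlo libraries GFPminus and all 3 Hdc-GFPhi libraries GFPplus. Nothing in the labels says that the libraries came from separate animals, so p-values measure only how much these samples vary, and that variation may be technical.

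Type I interferons act through the receptor chains Ifnar1 and Ifnar2, whose kinases Jak1 and Tyk2 phosphorylate STAT proteins. A complex that holds STAT2 and IRF9 then binds the interferon-stimulated response element (ISRE) in the promoters of target genes, whereas interferon gamma acts on gamma-activated sites (GAS). In mice, interferon is known to bring dormant HSCs into cycle, and stem cells are known to keep a set of interferon-stimulated genes expressed without infection.

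The promoter letters that such factors read are shown first, because they are shared by genes whose levels differed widely in these libraries. RefSeq promoters of the build GRCm38.p6, from 250 bases before to 50 bases after each gene start, were at hand for 28 members. The ISRE core GAAANNGAAA, searched on both strands, was present for 13 of the 28 members (46.4%), against 1079 of 27025 genes with a promoter (3.99%). The GAS core TTCNNNGAA, likewise on both strands, was present for 9 of the 28 members (32.1%), against 9.55% of all genes with a promoter, and 4 members had both motifs. In the following windows, written 5′ to 3′ on the gene's strand, capitals mark the ISRE core, or for Irf1 the GAS core. TTTC in capitals is the core read from the opposite strand.
Isg15: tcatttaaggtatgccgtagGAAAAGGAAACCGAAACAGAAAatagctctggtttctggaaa
Bst2: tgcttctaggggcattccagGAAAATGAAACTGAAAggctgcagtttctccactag
Oas1a: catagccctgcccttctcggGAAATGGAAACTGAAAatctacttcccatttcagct
Ifit1: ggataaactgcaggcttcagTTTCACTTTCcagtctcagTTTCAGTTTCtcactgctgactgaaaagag
Ifit3: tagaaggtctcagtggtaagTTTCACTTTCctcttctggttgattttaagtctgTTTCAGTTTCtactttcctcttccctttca
Cxcl10: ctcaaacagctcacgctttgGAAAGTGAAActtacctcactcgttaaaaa
Ddx58: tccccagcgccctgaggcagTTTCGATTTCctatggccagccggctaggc
Irf1: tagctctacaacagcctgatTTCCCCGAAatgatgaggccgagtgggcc
The Isg15 window (chr4:156200855-156200916, minus strand) held 3 overlapping matches, the first of them 78 bases before the gene start. The windows of Bst2 (chr8:71537567-71537622, minus strand) and Oas1a (chr5:120907510-120907565, minus strand) held 2 overlapping matches each. Those of Ifit1 (chr19:34640765-34640833) and Ifit3 (chr19:34583353-34583436), both on the plus strand, held 2 separate matches each. Cxcl10 (chr5:92349073-92349122, minus strand) had 1 match, which began 213 bases before the gene start. Ddx58 (chr4:40239794-40239843, minus strand) had 1 match just after its start, and Irf1 (chr11:53769904-53769952, plus strand) had 1 GAS match. These matches describe letters and do not show that a factor was bound.

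The members were expressed well above the typical gene in these stem cells. Levels are CPM, a gene's read count relative to the effective size of its library after TMM scaling, and between genes they are compared only per kb of exon, with lengths from GENCODE M21, an annotation of a later build than the counts. The median member was at 25.5 CPM per kb, against 11.3 CPM per kb over the 11652 tested genes with a length. Of the 36 members, 29 lay above that median of all genes and 16 at or above the percentile 75. Ifi47, an immunity-related GTPase gene, was highest at 174 CPM per kb in Hdc-GFPhi and 154 CPM per kb in Hdc-GFPlo. Bst2, which tethers budding virus particles to the cell surface, followed at 104 and 90.9 CPM per kb in Hdc-GFPhi and Hdc-GFPlo, and Oasl2 at 71.2 and 75.1 CPM per kb. At the other end stood Ifit3, Mx2, Cxcl10 and Mx1, at 3.63, 1.77, 1.40 and 0.75 CPM per kb as the mean of both groups. The ISRE-bearing windows above belong to genes from the 93.6th percentile (Bst2) to the 17.6th percentile (Cxcl10) of level per kb.

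**Figure D1:**
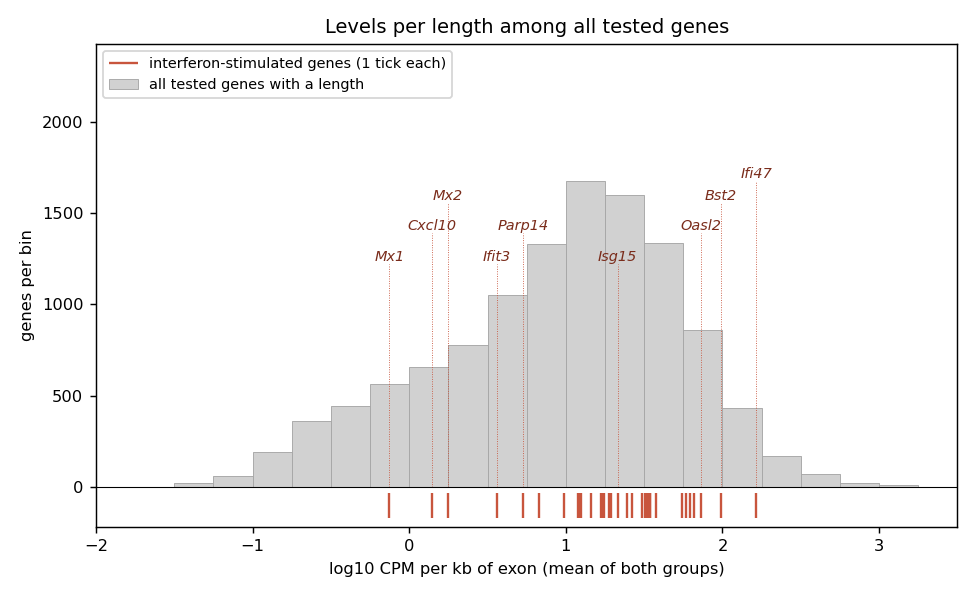
Grey bars count the tested genes that had a length in bins of log10 CPM per kb of exon (mean of both groups), and each red tick is an interferon-stimulated gene. Most ticks lie to the right of the peak of the grey distribution, with Ifi47 highest and Mx1 lowest.

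These levels stood beside almost no message for the interferons themselves. Of 19 interferon ligand genes with a row, including Ifnb1, Ifng and the Ifna genes, 18 had no count in any library, and Ifnz had 1, 2 and 4 counts in Hdc-GFPhi and 0, 7, 3 and 0 counts in Hdc-GFPlo. A count of 0 allows up to 3 counts, which is 0.125 to 0.160 CPM at these depths. Such limits cover counting error only, since amplified reads are not independent molecules. The receptor and its kinases were plainly measured. Ifnar1 was at 121, 135 and 137 CPM in Hdc-GFPhi and at 127, 124, 127 and 117 CPM in Hdc-GFPlo. Its log2 ratio, the log2 fold change of Hdc-GFPhi over Hdc-GFPlo, was 0.08 (SE 0.09), with Ifnar2 at -0.03 (SE 0.10), Jak1 at -0.09 (SE 0.13) and Tyk2 at 0.14 (SE 0.12). Of the 9 receptor and kinase genes tested, none had an unadjusted edgeR p under 0.05.

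Between the fractions, no member passed the test, and the set as a whole had overlapping levels. The summed level of the 36 members was 2919, 3235 and 3085 CPM in Hdc-GFPhi and 3125, 2949, 3045 and 3095 CPM in Hdc-GFPlo, so the Hdc-GFPlo libraries lay within the range of Hdc-GFPhi. In edgeR's quasi-likelihood test with Benjamini-Hochberg adjustment over 12917 genes, 0 members and 0 genes in all passed an adjusted p of 0.05 (background 0%). The adjusted p of the members ran from 0.239 to 0.999. At an unadjusted p under 0.05 there were 4 of 36 members (11.1%), against 12.2% of all genes tested. Of these, 2 members were higher in Hdc-GFPhi (background 4.92%) and 2 were lower (background 7.31%), shares near the background. Over all genes that was 635 higher and 944 lower, but 826 higher and 768 lower when libraries were scaled by their totals, and 796 and 828 with upper quartiles. Values were higher in Hdc-GFPhi for 21 members and lower for 15, with a median log2 ratio of 0.10, against 0.01 over all genes. For 32 members the 95% interval of the log2 ratio lay between -1 and 1. DESeq2 called 1 member, Parp14, where it called 344 genes or 2.66% of all genes, and limma with quality weights called 0.

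The groups did not overlap for 8 of 36 members (22.2%), where this held for 11.9% of all genes tested. Irf3, Irf7, Ifit1, Isg15 and Ifi35 had every Hdc-GFPhi library above every Hdc-GFPlo library (background 6.03%), and Ddx58, Usp18 and Parp14 had every Hdc-GFPhi library below (background 5.86%). Outside the set, the groups did not overlap for 2 of 36 further interferon-induced genes tested (5.56%). Over all 67 pathway genes tested outside the set this held for 5 (7.46%). Whether the members' share exceeds the background was not tested.

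**Figure D2:**
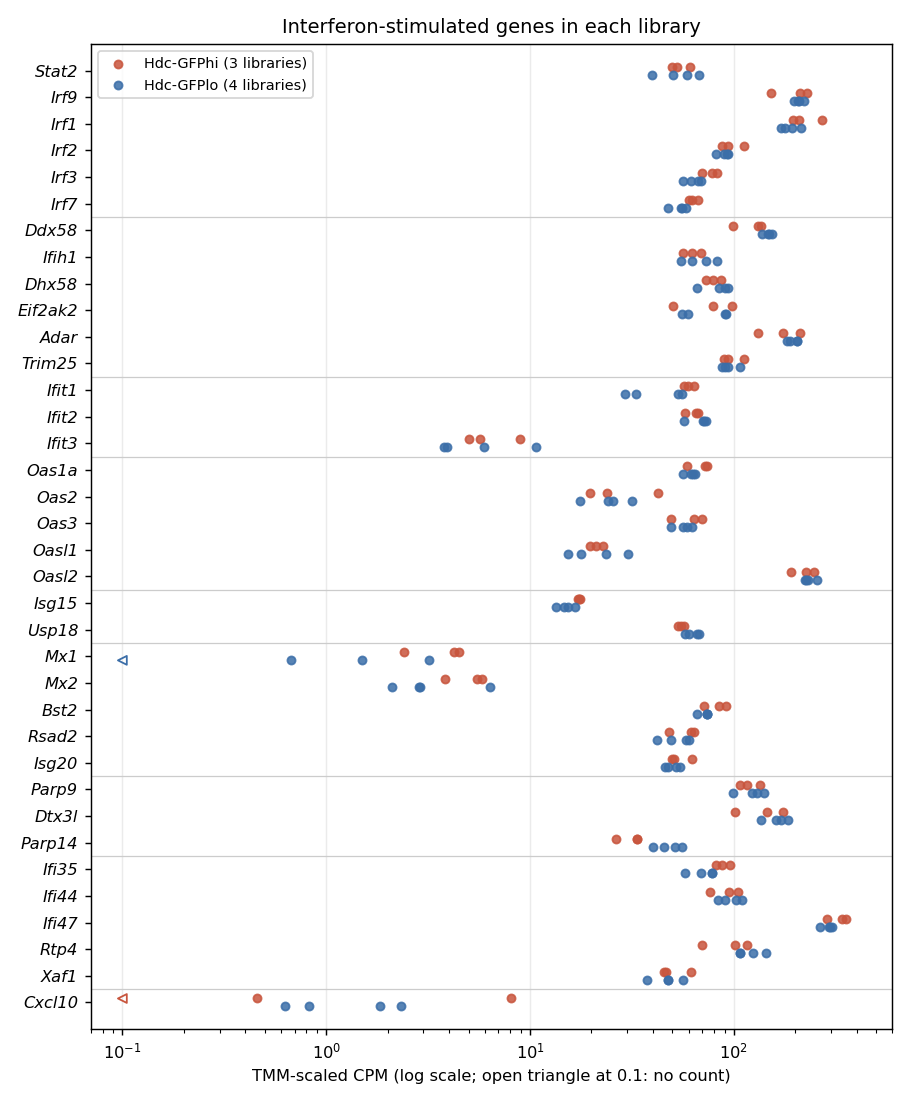
Each point is the TMM-scaled CPM (log axis) of a gene in a library, red for the 3 Hdc-GFPhi and blue for the 4 Hdc-GFPlo libraries, and lines separate the roles. For most genes the colours intermix, while Mx1, Mx2, Ifit3 and Cxcl10 lie lowest and are the most scattered.

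The sort itself left Hdc at 37.6, 18.7 and 33.8 CPM in Hdc-GFPhi and at 16.2, 16.7, 21.6 and 4.44 CPM in Hdc-GFPlo, with overlapping groups (log2 ratio 1.03, SE 0.45, edgeR adjusted p = 0.397). All 10 HSC markers looked at, among them Kit, Procr and Slamf1, were detected. Their summed level was 3585 to 3958 CPM in Hdc-GFPhi and 4059 to 4416 CPM in Hdc-GFPlo. Most of this gap came from Kit, with a mean of 1197 CPM in Hdc-GFPhi and 1589 CPM in Hdc-GFPlo, and the sums overlapped without Kit. Of the markers, 2 that were lower in Hdc-GFPhi, Kit and Hlf, had an unadjusted p under 0.05. Transcripts used as markers of other cell types, and of mitosis, were present as well. Whether they came from other cells or from the stem cells was not tested. Neutrophil markers summed to 5586 to 7746 CPM in Hdc-GFPhi and 2680 to 6468 CPM in Hdc-GFPlo, with 9 of 9 tested markers higher in Hdc-GFPhi, 5 of them at an unadjusted p under 0.05. Mitosis markers summed to 850 to 1113 CPM in Hdc-GFPhi and 1105 to 1744 CPM in Hdc-GFPlo, with 8 of 8 lower in Hdc-GFPhi, 7 of them at an unadjusted p under 0.05. Their part in the values of the interferon-stimulated genes was not tested. In RNA from pooled cells, fewer cells of a type and less RNA per cell cannot be told apart. Siglech, which defines plasmacytoid dendritic cells, the professional makers of type I interferon, had 1 count in Hdc-GFPhi replicate 1 and 0 counts elsewhere. The 8 markers of that cell type summed to 165 to 198 CPM in Hdc-GFPhi and 156 to 328 CPM in Hdc-GFPlo, but Bst2, itself an interferon-stimulated gene, and Tcf4 made up most of this. The value of 328 CPM, in Hdc-GFPlo replicate 2, held 168 CPM of Cox6a2. Hdc-GFPhi replicate 1 stood apart in immediate early and dissociation markers, at a summed 9422 CPM against 1397 to 3279 CPM in the other 6 libraries, and in myeloid progenitor markers, at 2547 CPM against 131 to 1397 CPM. The same library was highest in eosinophil markers, at 694 CPM against 0.623 to 32.6 CPM, in monocyte or macrophage markers, at 249 CPM against 33.0 to 121 CPM, and in red cell markers, at 45.5 CPM against 0.0968 to 23.6 CPM. Hdc-GFPhi replicate 3 held 207, 138, 69 and 37 counts of the natural killer cell genes Il2rb, Ncr1, Gzma and Klrd1. Each of these genes had 0 or 1 count in every other library. Of the 10 natural killer or T cell markers looked at, others were not limited to that library. Klrb1c had 134, 236 and 177 counts in Hdc-GFPhi and 47, 159, 82 and 118 counts in Hdc-GFPlo. Nkg7 ran from 133 to 186 CPM, highest in Hdc-GFPhi replicate 3, and Cd4 was highest in Hdc-GFPhi replicate 1. Cd3e, Cd3g and Cd8a had 0 or 1 count in every library. All 4 tested B cell markers had higher values in Hdc-GFPhi, 0 of them at an unadjusted p under 0.05.

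Among the factors that carry the signal, Irf3 differed most between the fractions relative to its error. IRF3 is the constitutive factor that turns on interferon genes after viral RNA or DNA is sensed. Irf3 was at 82.4, 69.9 and 77.9 CPM in Hdc-GFPhi and at 66.8, 56.1, 69.3 and 61.8 CPM in Hdc-GFPlo. The groups did not overlap, although Hdc-GFPhi replicate 2 and Hdc-GFPlo replicate 3 were nearly level, and the log2 ratio was 0.27 (SE 0.12, unadjusted p = 0.0461, edgeR adjusted p = 0.399). Irf7, which is itself induced by interferon and amplifies the response, was at 62.3, 60.5 and 66.6 CPM in Hdc-GFPhi and at 55.4, 47.3, 55.1 and 58.0 CPM in Hdc-GFPlo (log2 ratio 0.23, SE 0.12, adjusted p = 0.466). Its lowest library was Hdc-GFPlo replicate 2.

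Irf1, the target of interferon gamma whose GAS match is shown above, was at 271, 208 and 196 CPM in Hdc-GFPhi and at 194, 171, 214 and 179 CPM in Hdc-GFPlo (log2 ratio 0.25, SE 0.13, adjusted p = 0.464). The high value came from Hdc-GFPhi replicate 1, the library high in immediate early genes, and without it the log2 ratio was 0.09. Irf2, an antagonist of IRF1 at the same sites, was at 112, 87.8 and 94.0 CPM in Hdc-GFPhi and at 81.8, 89.0, 92.1 and 93.4 CPM in Hdc-GFPlo. Its groups overlapped, and its log2 ratio of 0.14 (SE 0.11) was 0.029 without Hdc-GFPhi replicate 1. The remaining factors, Irf9 and Stat2, act in the ISRE-binding complex. Irf9 was at 152, 211 and 229 CPM in Hdc-GFPhi and at 222, 197, 209 and 206 CPM in Hdc-GFPlo. Its lowest and its highest library were both Hdc-GFPhi, and its log2 ratio of -0.08 (SE 0.13) turned to 0.078 without Hdc-GFPhi replicate 1, the lowest. Stat2 averaged 54.2 ± 5.81 CPM in Hdc-GFPhi and 54.2 ± 12.0 CPM in Hdc-GFPlo (SD, n = 3 and 4), and its sign changed with the scaling. At 12.3 CPM per kb of exon against 65.4 CPM per kb for Irf9, Stat2 was the less abundant of the pair.

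Of the 6 genes for sensors of double-stranded RNA and proteins that act with them, 4 had lower and 2 higher values in Hdc-GFPhi, and none passed the adjusted threshold. Their summed level was 548, 702 and 583 CPM in Hdc-GFPhi and 682, 653, 653 and 661 CPM in Hdc-GFPlo, so Hdc-GFPhi held both the lowest libraries and the highest. Ddx58, which encodes the sensor RIG-I, was at 99.1, 131 and 136 CPM in Hdc-GFPhi and at 148, 154, 147 and 137 CPM in Hdc-GFPlo. Its highest Hdc-GFPhi library reached 135.7 CPM and its lowest Hdc-GFPlo library 136.9 CPM, so the groups met without overlapping. The log2 ratio was -0.27 (SE 0.12, unadjusted p = 0.0493, adjusted p = 0.406), and it was -0.14 with an unadjusted p of 0.166 without Hdc-GFPhi replicate 1, the lowest library.

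Mavs, the mitochondrial adaptor on which RIG-I and MDA5 signal, also had lower values throughout, at 81.3, 89.7 and 93.9 CPM in Hdc-GFPhi and at 112, 102, 99.0 and 99.8 CPM in Hdc-GFPlo (log2 ratio -0.22, SE 0.10, unadjusted p = 0.0428, edgeR adjusted p = 0.392). The groups of Mavs did not overlap. Ifih1, which encodes MDA5, and Dhx58, which encodes their regulator LGP2, had log2 ratios of -0.12 (SE 0.16) and -0.07 (SE 0.14). Adar, whose product edits double-stranded RNA and so keeps it from being sensed, was at -0.17 (SE 0.14), with Hdc-GFPhi replicate 1 lowest at 132 CPM, and at -0.0076 without that library. Trim25, the ubiquitin ligase linked to RIG-I, averaged 98.2 ± 11.7 CPM in Hdc-GFPhi and 94.8 ± 8.43 CPM in Hdc-GFPlo (SD, n = 3 and 4). Eif2ak2, the kinase PKR that halts translation when it meets double-stranded RNA, varied widely inside both fractions, from 50.3 to 98.2 CPM in Hdc-GFPhi and from 55.8 to 91.1 CPM in Hdc-GFPlo.

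**Figure D3:**
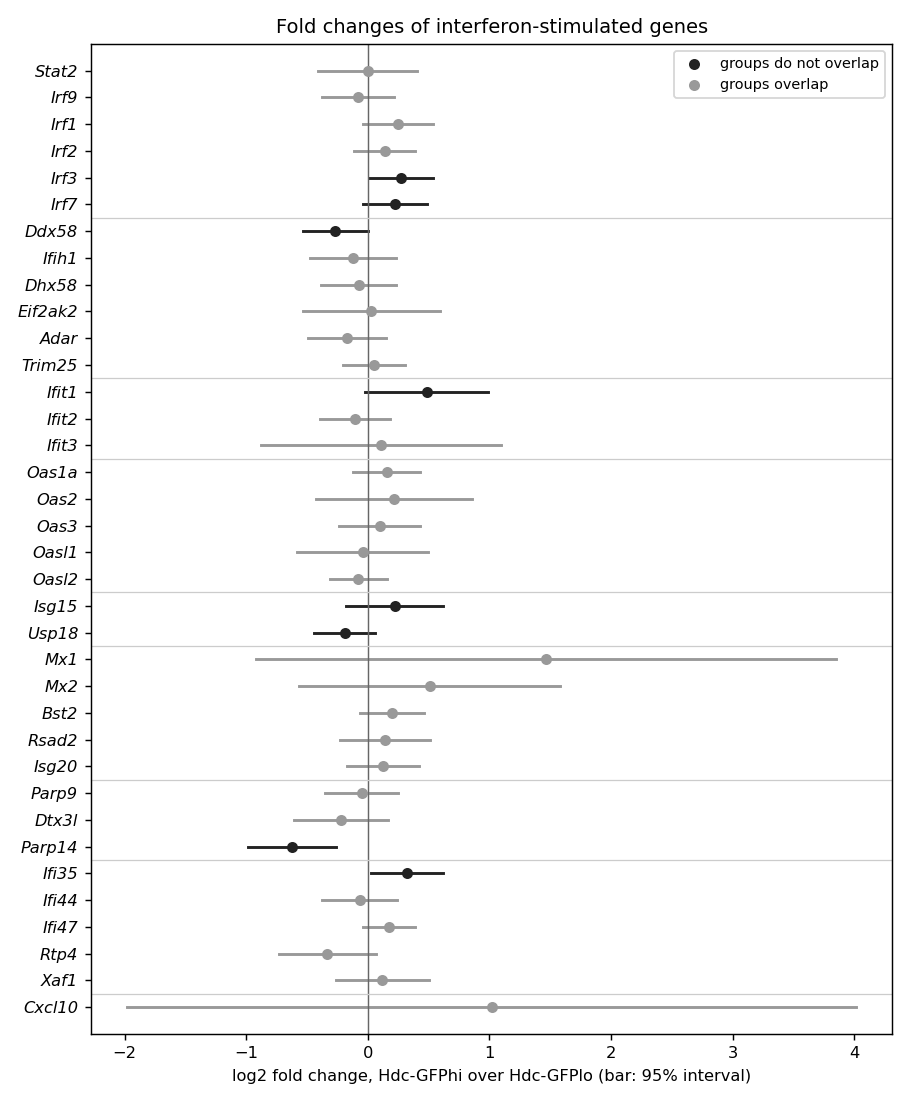
Points give each gene's log2 ratio of Hdc-GFPhi over Hdc-GFPlo and bars the 95% interval of the fit, in black where the groups do not overlap. Most intervals span 0, Parp14 lies farthest below 0 with an interval from -0.99 to -0.26, and Mx1 and Cxcl10 have the widest intervals.

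The IFIT proteins bind viral RNA that lacks the host cap, and their genes lie together in the genome, where Ifit2 and Ifit3 are direct neighbours. Ifit1 was at 56.9, 63.6 and 59.3 CPM in Hdc-GFPhi and at 55.4, 33.3, 29.2 and 53.3 CPM in Hdc-GFPlo. Hdc-GFPlo fell into a higher and a lower pair of libraries, and the higher pair came close to Hdc-GFPhi. Its log2 ratio of 0.49 (SE 0.23, unadjusted p = 0.0581, adjusted p = 0.423) did not pass.

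Ifit2 did not show this split. It averaged 63.1 ± 4.63 CPM in Hdc-GFPhi and 67.9 ± 7.56 CPM in Hdc-GFPlo (SD, n = 3 and 4; log2 ratio -0.11, SE 0.13). Ifit3 was at 5.04, 5.69 and 8.96 CPM in Hdc-GFPhi and at 3.78, 5.96, 3.93 and 10.7 CPM in Hdc-GFPlo, with its highest value in Hdc-GFPlo replicate 4. A near-identical copy, Ifit3b, lies beside it in the mouse, so reads shared with that copy make the level of Ifit3 uncertain. Per kb, Ifit1 stood at 19.3 and Ifit2 at 17.2 CPM, against 3.63 CPM for Ifit3.

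The OAS enzymes make the short adenylate chains that switch on RNase L, and none of the 5 OAS and OAS-like genes separated the fractions. The most abundant per kb was Oasl2, one of the OAS-like genes, at 191, 248 and 227 CPM in Hdc-GFPhi and at 225, 225, 232 and 257 CPM in Hdc-GFPlo (log2 ratio -0.08, SE 0.10). Its neighbour Oasl1 ranged from 19.8 to 22.8 CPM in Hdc-GFPhi and from 15.4 to 30.4 CPM in Hdc-GFPlo. Oas2 was the most uneven, at 23.8, 42.4 and 19.7 CPM in Hdc-GFPhi and at 31.5, 17.5, 25.7 and 24.1 CPM in Hdc-GFPlo. Only its Hdc-GFPhi replicate 2 lay above the Hdc-GFPlo libraries, and without that library the log2 ratio was -0.18 in place of 0.21. Oas3, the neighbour of Oas2, also had its highest library there, at 69.4 CPM (log2 ratio 0.10, SE 0.15). Oas1a was at 68.4 ± 8.18 CPM in Hdc-GFPhi and 61.4 ± 3.73 CPM in Hdc-GFPlo (SD, n = 3 and 4). Close relatives of Oas1a have rows of their own, and reads that match several of them may be split or lost, so its level is uncertain.

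ISG15, a ubiquitin-like protein joined to other proteins during the response, and USP18, the protease that removes it and also damps signalling at IFNAR2, had small differences of opposite sign, and neither passed. Isg15 was at 17.2, 17.7 and 17.4 CPM in Hdc-GFPhi and at 14.6, 13.3, 15.4 and 16.6 CPM in Hdc-GFPlo. The Hdc-GFPhi libraries were nearly identical and all above Hdc-GFPlo, but the log2 ratio of 0.22 (SE 0.18, unadjusted p = 0.246, edgeR adjusted p = 0.651) did not pass. Usp18 was at 56.9, 54.9 and 53.5 CPM in Hdc-GFPhi and at 67.1, 66.3, 60.4 and 57.6 CPM in Hdc-GFPlo (log2 ratio -0.19, SE 0.11, adjusted p = 0.526). Its groups did overlap when libraries were scaled by their totals or by upper quartiles, unlike those of the other 7 members named above.

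The antiviral effectors had higher values in Hdc-GFPhi for 5 of 5 genes, and none had an unadjusted p under 0.05. Mx1 and Mx2 encode dynamin-like GTPases that block virus replication, and C57BL/6 mice are known to carry a defective Mx1 allele. Mx1 had 96, 108 and 51 counts in Hdc-GFPhi, against 31, 0, 15 and 66 counts in Hdc-GFPlo. Libraries of both fractions overlapped, since Hdc-GFPlo replicate 4 (3.19 CPM) lay above Hdc-GFPhi replicate 3 (2.42 CPM), and the log2 ratio was 1.47 (SE 1.06, adjusted p = 0.618). Mx2 had 87, 132 and 122 counts in Hdc-GFPhi, against 131, 54, 47 and 59 counts in Hdc-GFPlo (log2 ratio 0.51, SE 0.48), and the highest CPM was in Hdc-GFPlo replicate 1.

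The other effectors were steadier. Bst2 was at 71.6, 91.8 and 84.6 CPM in Hdc-GFPhi and at 74.2, 73.8, 74.0 and 66.0 CPM in Hdc-GFPlo (log2 ratio 0.20, SE 0.12). Hdc-GFPhi replicate 1 was the library that overlapped with Hdc-GFPlo, and without it the log2 ratio was 0.29 with an unadjusted p of 0.0291. Rsad2, the gene for viperin, which makes a chain-terminating nucleotide, had a log2 ratio of 0.14 (SE 0.17). Isg20, an exonuclease gene, was at 0.12 (SE 0.13), and at 0.012 without Hdc-GFPhi replicate 1.

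Parp14 had the smallest p of all members. It encodes an ADP-ribosyltransferase of the macrodomain family and lies directly beside Dtx3l and Parp9, whose products form a ubiquitin ligase and ADP-ribosylation complex induced by interferon. Parp14 was at 26.5, 33.3 and 33.7 CPM in Hdc-GFPhi and at 55.6, 45.2, 40.2 and 51.3 CPM in Hdc-GFPlo. Every Hdc-GFPhi library was lower, the ratio was 0.648, and the log2 ratio was -0.63 (SE 0.16, unadjusted p = 0.00335, edgeR adjusted p = 0.239). It ranked 180th of 12917 genes by p. DESeq2 gave the same log2 ratio of -0.63 with an adjusted p of 0.0216. Without Hdc-GFPhi replicate 1, the lowest library, the log2 ratio was -0.52 and the unadjusted p 0.0144. Of the members, only Parp14 had an unadjusted p under 0.05 in every one of the 17 alternative fits.

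Its neighbours had smaller differences. Dtx3l was at 102, 174 and 145 CPM in Hdc-GFPhi and at 171, 184, 136 and 161 CPM in Hdc-GFPlo, with Hdc-GFPhi replicate 1 again lowest (log2 ratio -0.22, SE 0.17). Without that library it was -0.03. Parp9 was at 107, 134 and 115 CPM in Hdc-GFPhi and at 141, 130, 99.3 and 123 CPM in Hdc-GFPlo (log2 ratio -0.05, SE 0.13). The difference between Parp14 and its neighbours was itself not tested.

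**Figure D4:**
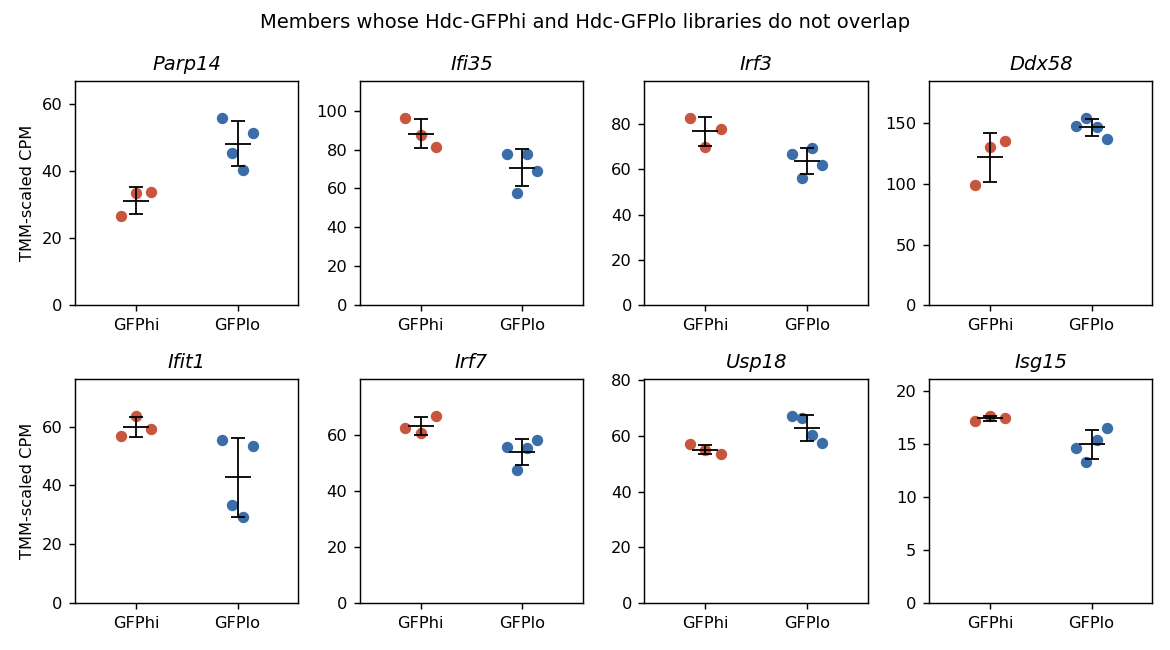
Points are the TMM-scaled CPM of each library for the 8 genes whose fractions did not overlap, with mean and SD in black (3 Hdc-GFPhi and 4 Hdc-GFPlo libraries). Parp14 shows the widest gap between the groups, and in Ddx58, Irf3 and Usp18 the nearest libraries almost touch.

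Among the further induced genes, Ifi35 had the next smallest p of the members. Its product binds NMI, another interferon-induced protein. Ifi35 was at 96.0, 87.3 and 81.5 CPM in Hdc-GFPhi and at 77.9, 57.8, 77.9 and 69.1 CPM in Hdc-GFPlo (log2 ratio 0.32, SE 0.13, unadjusted p = 0.0358, adjusted p = 0.374). Hdc-GFPlo replicate 2 was the lowest library, and the groups did not overlap. For Nmi, the partner gene, the log2 ratio was 0.16 (SE 0.13).

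Ifi47 was at 354, 287 and 341 CPM in Hdc-GFPhi and at 265, 296, 293 and 302 CPM in Hdc-GFPlo, and Hdc-GFPhi replicate 2 lay among the Hdc-GFPlo libraries (log2 ratio 0.18, SE 0.09, adjusted p = 0.482). Rtp4, a chaperone-like protein of the receptor transporter family, was at 69.4, 101 and 116 CPM in Hdc-GFPhi and at 107, 107, 124 and 144 CPM in Hdc-GFPlo. The groups overlapped, with Hdc-GFPhi replicate 1 far below the rest, and the log2 ratio of -0.33 (SE 0.18) became -0.15 without it. Ifi44 and the gene for XIAP-associated factor 1, Xaf1, had log2 ratios of -0.07 (SE 0.14) and 0.12 (SE 0.17).

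Cxcl10, the chemokine that draws activated T cells, had most of its few counts in a single library. It had 183, 11 and 0 counts in Hdc-GFPhi, against 17, 44, 41 and 13 counts in Hdc-GFPlo. The 183 counts came from Hdc-GFPhi replicate 1. The log2 ratio was 1.02 (SE 1.34) with that library and -2.57 without it, so no direction can be given.

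No library had the whole set high or low. The median deviation of the members from their own means, on the log2(CPM + 2) scale, was -0.04, 0.08 and 0.00 in Hdc-GFPhi and 0.03, -0.08, 0.01 and 0.01 in Hdc-GFPlo. Hdc-GFPhi replicate 2 held the highest value of 11 members and the lowest of 0, while Hdc-GFPlo replicate 2 held the lowest of 12. Hdc-GFPhi replicate 1 held the highest value of 8 members and the lowest of 9, so its differences ran both ways. The median within-group SD on that scale was 0.19 for the members and 0.22 for all genes tested. Members with an ISRE core had a median log2 ratio of 0.14 (10 of 13 higher in Hdc-GFPhi), and members whose promoter lacked it 0.05 (8 of 15 higher). These counts include signs that were not stable. Cxcl10, Eif2ak2, Ifit3 and Oas3 with the core, and Trim25 and Xaf1 without it, changed sign in some alternative fit. Of all genes tested, 51.6% were higher, and the median SE of a member's log2 ratio was 0.14. The contrast between members with and without the core was not tested.

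**Figure D5:**
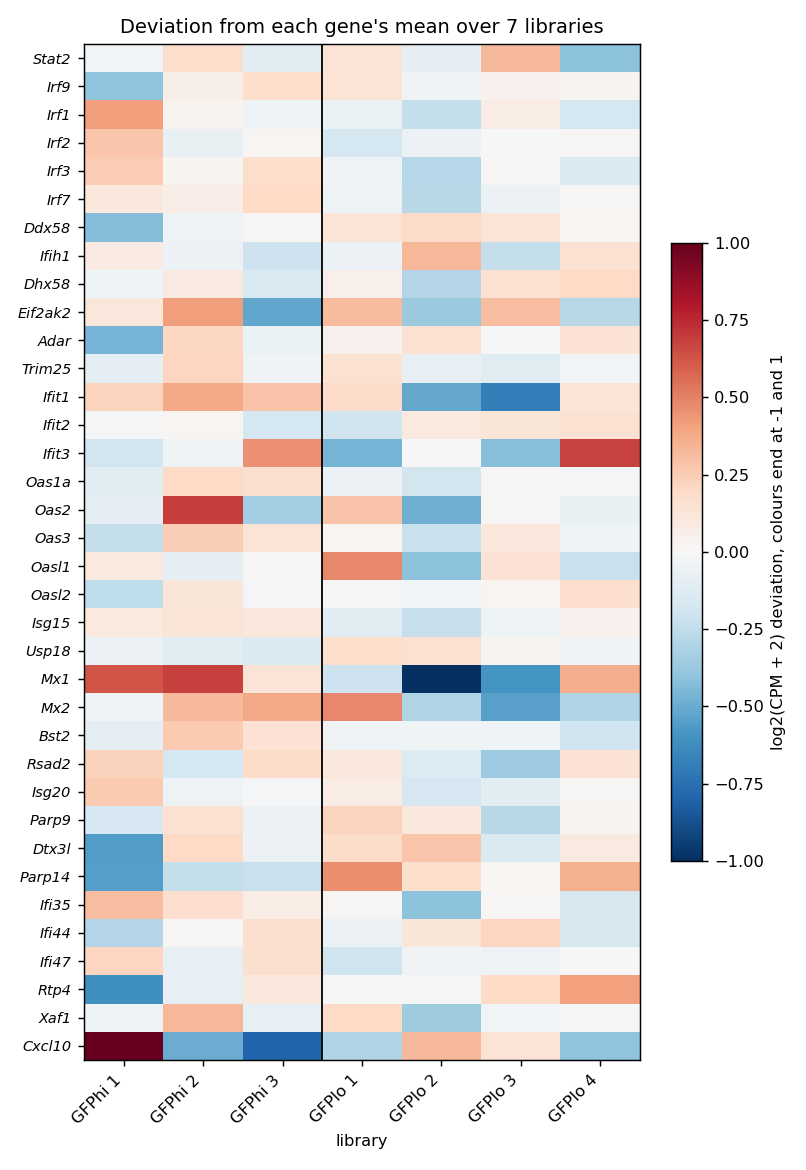
Colours show how far each gene in each library lay above (red) or below (blue) its mean over the 7 libraries on the log2(CPM + 2) scale, with the 3 Hdc-GFPhi libraries left of the line. No column is of a single colour, and the Hdc-GFPhi replicate 1 column holds both red (Cxcl10, Mx1) and blue cells (Rtp4, Dtx3l, Parp14).

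Outside the set, no gene of the pathway lists passed the adjusted threshold either. Of 36 further interferon-induced genes tested, 20 had higher and 16 lower values, with a median log2 ratio of 0.02, and 1 was at an unadjusted p under 0.05 (2.78%, against 12.2% of all genes tested). That gene was Trim34a, a TRIM family gene, at 54.4, 58.1 and 60.8 CPM in Hdc-GFPhi and at 62.1, 69.1, 84.2 and 69.9 CPM in Hdc-GFPlo (log2 ratio -0.31, SE 0.13, edgeR adjusted p = 0.391). Slfn1, a Schlafen gene, had 80, 202 and 59 counts in Hdc-GFPhi, against 44, 17, 28 and 0 counts in Hdc-GFPlo (log2 ratio 2.19, SE 1.02, unadjusted p = 0.0590), and was picked out after its values were seen.

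Of 12 negative regulators, 7 had higher and 5 lower values. An unadjusted p under 0.05 was found for 2 of the higher ones (16.7% of the list, against 12.2% of all genes tested). Trex1, the exonuclease that clears cytosolic DNA and so limits interferon production, was at 59.4, 49.0 and 49.5 CPM in Hdc-GFPhi and at 39.0, 40.8, 34.7 and 48.2 CPM in Hdc-GFPlo. The groups did not overlap (log2 ratio 0.37, SE 0.15, edgeR adjusted p = 0.363). Pias4, a SUMO ligase gene, was at 62.6, 36.1 and 43.8 CPM in Hdc-GFPhi and at 37.9, 29.7, 28.5 and 39.3 CPM in Hdc-GFPlo, with overlapping groups (log2 ratio 0.49, SE 0.21, adjusted p = 0.391). Of 11 sensing and adaptor genes tested, Mavs was the single gene at an unadjusted p under 0.05 (9.09%, against 12.2% of all genes tested). Tmem173, which encodes the DNA-sensing adaptor STING, had a log2 ratio of 0.01 (SE 0.14). Across all 67 pathway genes tested outside the set, 4 were at an unadjusted p under 0.05 (5.97%, against 12.2% of all genes tested) and 0 passed the adjusted threshold. Without Hdc-GFPhi replicate 1, a check added after seeing the data, the log2 ratio was 0.24 for Pias4, 0.28 for Trex1, -0.17 for Mavs and -0.26 for Trim34a, and the unadjusted p of these 4 genes ran from 0.105 for Trim34a to 0.247 for Pias4.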

How the data were processed

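RNA of 500 sorted HSCs per library was turned into amplified cDNA by a SMARTer Ultra Low Input method, with no step named that keeps strand, and into Nextera XT libraries, per the labels' protocols. Per the submitters' processing notes, the build was mm9 and the tools were HTSeq 0.6.1, Bowtie2, TopHat2 (2.0.4 or 2.04) and bcl2fastq 1.8.4. Annotation, strand setting and read filters: not given in the sources used here. Raw counts per gene symbol were deposited by the authors, 1 column per library, matched to samples by library code. Reads of overlapping, antisense or near-identical genes cannot be separated. Total counts were 19606124 to 23688672 per library.

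In R 4.3.3, edgeR 4.0.16 filtered genes with filterByExpr (minimum count 10), scaled libraries by TMM and compared Hdc-GFPhi with Hdc-GFPlo by its robust quasi-likelihood F test over 12917 genes (Benjamini-Hochberg, threshold 0.05). An SE is the absolute log2 ratio over the root of F, and 95% intervals use the t quantile of the fit. Per-library values are given for members at an unadjusted p under 0.05 or with groups that do not overlap, the 8 highest per kb and the 5 with the widest range between libraries. The members and lists were chosen with earlier results of these data known. The fit was tested on simulated data. Alternatives were other scalings, filters, DESeq2 1.42.0, limma 3.58.1, a replicate block and leaving out libraries.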

Additional observations from a re-analysis of the deposited data

Results flagged for a closer look

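Bst2 was the only member of the 36 looked at in which a library stood far from the other 3 of Hdc-GFPlo. Its level was 66.0 CPM in Hdc-GFPlo replicate 4 and 74.2, 73.8 and 74.0 CPM in replicates 1 to 3. The gap to the nearest library was 0.948 of the range of the group. Chance marks about 1 group in 20 in this way.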

How the results depend on the processing

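Over 17 alternative fits, 22 of 36 members kept the sign of their log2 ratio, among them all 8 whose groups did not overlap, and 14 changed it in some fit. No member passed edgeR or limma in any of them, while DESeq2 called 344 genes and 1 member (Parp14, -0.63), with no adjusted p for 3022 genes. Over the fits without 1 library, genes at an unadjusted p under 0.05 numbered 997 (without Hdc-GFPhi replicate 1) to 1884, and members 1 (without Hdc-GFPlo replicate 2) to 6, with 2 without Hdc-GFPhi replicate 1. Without both Hdc-GFPhi replicate 1 and Hdc-GFPlo replicate 4, a pair chosen after seeing the data, 1206 genes and 2 members (Ifit1 and Parp14) were at that level. The members' median was -0.02 to 0.13 over the fits without 1 library, and the low end came without Hdc-GFPhi replicate 2. Over the fits without 1 library or without that pair, the log2 ratio ran from -0.12 to 0.13 for Stat2, -0.21 to 0.078 for Irf9, -0.20 to 0.24 for Eif2ak2, -0.34 to 0.0040 for Adar, -0.051 to 0.11 for Trim25 and -0.19 to 0.68 for Ifit3. It ran from -0.18 to 0.41 for Oas2, -0.0088 to 0.23 for Oas3, -0.19 to 0.16 for Oasl1, -0.17 to 0.056 for Oasl2, -0.15 to 0.020 for Parp9, -0.18 to 0.053 for Ifi44, -0.033 to 0.21 for Xaf1 and -2.83 to 1.59 for Cxcl10. Stat2 was at 0.028 with upper quartiles, 0.035 with library totals and 0.0067 with at least 5 CPM in 3 libraries, a filter that dropped Mx1 and Cxcl10. With limma, Eif2ak2 was at -0.022, Parp9 at 0.017 and Cxcl10 at -1.79. The causes were not tested. Whether shared replicate numbers pair the libraries is not known. The deviations of same-numbered libraries correlated at -0.01, -0.04 and -0.14 for numbers 1 to 3. Of these, 0 of 3 correlated best with their own number. With only 3 libraries per group, each taken as a deviation from its group's mean, such correlations cannot exclude a pairing. The fit with the replicate number as a block left out Hdc-GFPlo replicate 4 and tested 12807 genes. In it, 1589 genes and 3 members were at an unadjusted p under 0.05 and none was called. The members' median was 0.07, Eif2ak2 was at -0.083 and Cxcl10 at -1.76. Of the 36 members, 32 had over 200 counts in every library, and the widest intervals belonged to the low-count genes Mx1 and Cxcl10.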
